A study of Mus musculus with 16 samples.

Results

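Nascent RNA was compared between 2 clones that carry a large deletion, labelled 100kdel.C3 and 245kdel.F9, and 3 libraries set beside them as near-parental, which are both libraries of the unedited F121-9 line and a clone with an inverted 680 kb interval, 680kinv.B10. These 5 of the 16 libraries of the series were chosen by their labels. F121-9 cells are hybrid mouse embryonic stem cells in which one set of chromosomes is castaneus (cast) and the other 129, and every library, controls included, carries that background. Per the labels, the hybrid cells were kept on gelatin with LIF and 2i and given 2 mM bromouridine for 30 min, and captured RNA was sequenced with strand retained. The deletions and the inversion had 1 library each, each from a single coded clone, and the labels give neither the position of an edit nor the copy that carries it. The labels name no other treatment that separates the 5 libraries. Nothing in the labels says that the libraries of one set came from separate cultures, so the p-values measure only the spread between these samples, and the 2 deletions are different edits treated as 1 set.

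Bru-seq captures RNA made during a short pulse of bromouridine, so a value reflects recent synthesis over a whole gene, introns included, more than stored message. Mouse embryonic stem cells held with LIF and 2i keep a naive pluripotent state and transcribe Pou5f1, Sox2, Nanog and Esrrb. They keep many germline genes silent through a Polycomb-type complex that contains MGA, MAX and E2F6. The series asks how elements within a replication domain control its replication time and position, and the domain holds Dppa2, Dppa4 and Morc1, genes expressed in early embryos or germ cells.

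Values are allele-assigned read counts scaled to a total of 1e+06 per copy and library (CPM), averaged over the 129 and cast copies unless a copy is named. Autosomal reads over 1 line per gene ranged from 4081513 to 11270406 per copy in the 5 libraries, lowest in 245kdel. The summed level of 7 embryonic stem cell markers was 1528 to 1811 CPM in all 5 libraries. Marker sets of primitive endoderm, mesendoderm, neuroectoderm, trophoblast and fibroblasts summed to between 0.165 and 13.02 CPM, and 20 of their 29 genes had no read in at least 1 library. The 5 mesendoderm markers summed to 2.16 and 2.75 CPM in the deletions and 0.596 to 0.988 CPM in the near-parental libraries, and their part in the results was not tested. In such bulk samples fewer cells of a type and less RNA per cell cannot be told apart. All 3 near-parental libraries belong to the first of 2 runs of sample numbers in the deposit and both deletions to the second, so set and run cannot be told apart within the 5 libraries; the labels do not state what a run stands for.

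The 2 deletions shared a broad difference from the near-parental libraries. Of 13724 autosomal genes tested, 2393 (17.4%) were higher and 743 (5.41%) lower in the deletions by limma at an adjusted p of 0.05, and both deletions lay above all 3 near-parental libraries for 41.1% of genes and below them for 15.0% (36.7% and 14.0% on the 129 copy alone, 36.8% and 14.2% on cast). The median difference over all tested genes was 0.22 on the log2(CPM + 0.1) scale, so that every change below is to be read against that shift. Scaling decided the balance of directions: 915 genes were higher and 2094 lower after median centring, 1295 and 1239 after quantile normalization, 1227 and 1427 with edgeR, and 1365 and 1828 with DESeq2. In a fit of all 16 libraries by group, no gene passed in either direction, with 1921 genes at an unadjusted p under the same threshold. Only groups with 2 libraries gave that fit its spread, so neither deletion nor 680kinv added to it. Of those groups, ab.del and c.del had a library in each run, so the spread took in any difference between runs. With the run of sample numbers as a further term, 2 genes were higher and 13 lower. Leaving out 100kdel left 158 higher and 46 lower, and leaving out 245kdel left 117 and 67. The count of lower genes was 428 without 680kinv, 1411 without replicate 1 of F121-9 and 447 without replicate 2. Of 108 single-gene results named here, most lost their call without 100kdel or without 245kdel, and none changed direction. In these fits 1 deletion library stood for the set, and the cause of the losses was not tested.

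**Figure D1:**
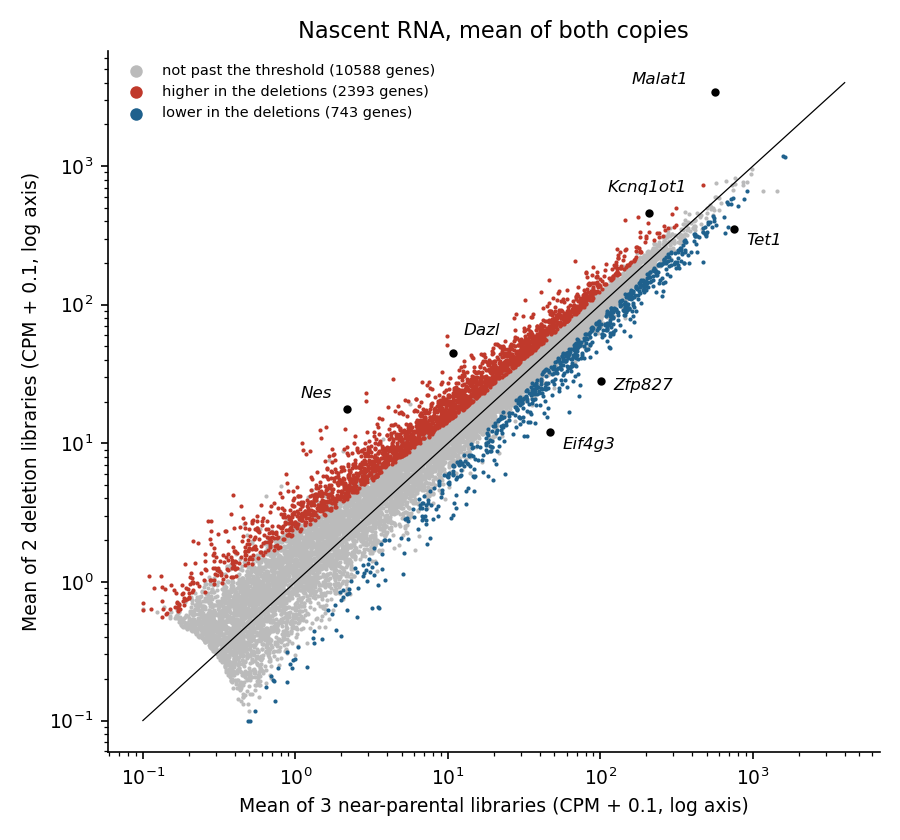
Mean of the 2 deletion libraries against the mean of the 3 near-parental libraries for 13724 autosomal genes, both as CPM + 0.1 on log axes, with the line of equal values. Red points are the 2393 genes that were higher and blue points the 743 that were lower by limma, and the labelled Malat1 lies far above the line.

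The genes that rose most in the deletions were nearly silent in the near-parental libraries. Bfsp2, a lens filament protein gene at chr9:103424924-103480248 (mm10), had 3.47 CPM in 100kdel and 4.87 in 245kdel, against 0.522 in 680kinv and 0.108 and 0.232 in F121-9. Its log2 difference was 3.59 ± 0.52 (SE, adjusted p = 0.00363), the greatest of the 12 genes named by size. Cntn1, a neuronal contactin, had 17.9 and 17.6 CPM in 100kdel and 245kdel, against 1.99 in 680kinv and 1.48 and 2.90 in F121-9, an 8.36-fold difference (log2 3.06 ± 0.29, adjusted p = 0.00122). Slc7a14, a gene of the amino acid transporter family at chr3:31202856-31310319, stood at 9.01 and 8.68 CPM in the deletions and at 0.637, 1.62 and 0.795 CPM in 680kinv and F121-9 replicates 1 and 2 (log2 3.10 ± 0.39, adjusted p = 0.00252). For all 3 genes the sets were far apart and the deletions close to each other, and none of the 6 other libraries of the second run reached the deletions: their highest values were 0.525 CPM for Bfsp2, 1.70 for Cntn1 and 1.08 for Slc7a14.

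Nes and Anxa2 rose as much but less selectively. Nes, which encodes the neural progenitor filament nestin, had 13.9 CPM in 100kdel and 21.4 in 245kdel, against 2.35 in 680kinv and 1.65 and 2.21 in F121-9 (log2 3.01 ± 0.27, adjusted p = 0.00111). Anxa2, a calcium-dependent membrane-binding protein, had 11.9 and 12.9 CPM against 1.39, 1.60 and 1.03 (log2 3.14 ± 0.27, adjusted p = 0.00100). The 6 other second-run libraries spanned 4.74 to 16.3 CPM for Nes, above every near-parental library, and 0.455 to 7.64 CPM for Anxa2. The other 7 genes of this group, A530064D06Rik, Gm17399, 4933425L06Rik, 1700003L19Rik, AI662270, Gpr83 and Ccdc172, were 8.73-fold (Ccdc172) to 15.9-fold (A530064D06Rik) higher, with adjusted p from 0.000676 to 0.00916. Among these 7, only Gpr83 was reached by the other second-run libraries, at 0.399 to 3.69 CPM against 1.73 and 2.76 CPM in the deletions. Malat1, an abundant nuclear long noncoding RNA picked out after its values were seen, had 3261 and 3603 CPM in the deletions and 622, 544 and 524 CPM in 680kinv and F121-9, a 6.09-fold difference (log2 2.61 ± 0.09, adjusted p = 8.14e-06). It ranged from 488 to 6098 CPM in the other second-run libraries and from 524 to 1519 CPM in those of the first run, so that its level differed widely within the second run as well.

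The genes that fell most included enzymes, signalling genes and histones. Eif4g3, a translation initiation scaffold at chr4:137993456-138207079, had 9.59 CPM in 100kdel and 14.3 in 245kdel, against 57.8 in 680kinv and 39.3 and 43.0 in F121-9, a 3.91-fold lower level (log2 -1.97 ± 0.21, adjusted p = 0.00177). Cpe, the carboxypeptidase that matures peptide hormones, had 0.669 and 1.42 CPM against 4.85, 7.17 and 2.87 (log2 -2.13 ± 0.44, adjusted p = 0.0116). Fam196b had 0.591 and 0.521 CPM against 5.07, 2.69 and 2.35 (log2 -2.33 ± 0.40, adjusted p = 0.00612). In the 6 other second-run libraries these 3 genes stayed above the deletions, at no less than 16.8, 4.53 and 2.64 CPM in the same order. Hist1h1c, Rgs20, Bmf, Hist1h3b, Pou2f3, Igsf21, AF529169 and Isoc2a were 3.67-fold (Isoc2a) to 6.19-fold (Bmf) lower, with adjusted p from 0.00245 (Isoc2a) to 0.0472 (Bmf). Of these, Rgs20, Igsf21 and Isoc2a also stayed above the deletions in all 6 other second-run libraries. For the rest those libraries reached into or below the deletion values. They spanned 0 to 0.989 CPM for Hist1h1c, 0 to 0.996 for Bmf and 0.156 to 0.287 for Hist1h3b. For Pou2f3 they spanned 0.781 to 40.3 CPM and for AF529169 0.667 to 3.65. Bmf, a pro-apoptotic BH3 gene, came closest to overlap with the near-parental set, with 0.279 and 0.329 CPM in the deletions and 0.589 CPM in F121-9 replicate 1.

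Other libraries of the second run moved with the deletions. Over the 2393 higher genes the median difference from the near-parental mean was 0.89 in 100kdel and 0.92 in 245kdel, 0.47 to 0.81 in the 6 other second-run libraries, and -0.07 to 0.17 in the 5 other first-run libraries, all on the log2 scale. Over the 743 lower genes it was -0.67 and -0.63 in the deletions, -0.45 to -0.31 in the other second-run libraries and -0.12 to 0.12 in the other first-run libraries. Of the higher genes, 662 (27.7%) also lay above all 6 other second-run libraries, where 17.3% of all tested genes did, and of the lower genes 267 (35.9%) lay below all 6, against 11.9%. A comparison of the deletions with those 6 libraries, chosen after the data were seen, called 542 genes higher and 315 lower. The part that the run has in any single gene was not tested, and the range of the 6 libraries is given beside only some of the genes below.

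**Figure D2:**
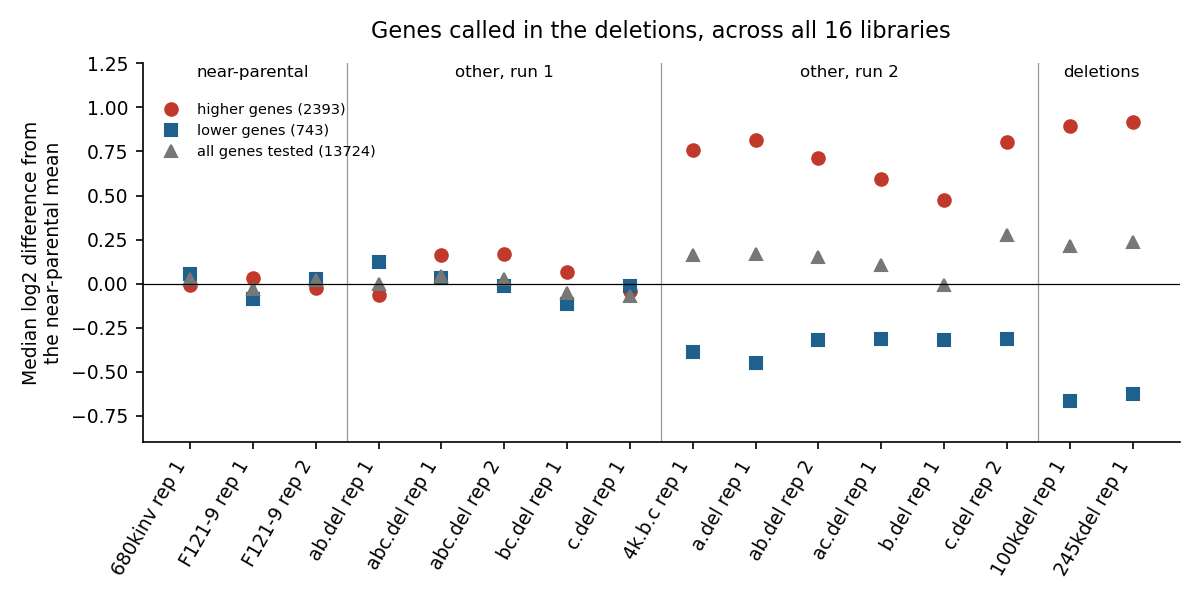
Median log2 difference from the near-parental mean over the 2393 higher, the 743 lower and all 13724 tested genes, for each of the 16 libraries grouped by set and run of sample numbers. The deletions, whose values chose the genes, lie outermost, and the 6 other second-run libraries lie between them and the first run.

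Only 15 genes passed with the run as a term, a fit in which the run was estimated from ab.del and c.del, the groups with a library in each run. The libraries of each of these groups came from different coded clones, so the run term also took in differences between clones. Among them Tiam1, an activator of the GTPase Rac, had 57.6 CPM in 100kdel and 61.8 in 245kdel, against 162 in 680kinv and 141 and 169 in F121-9. Its log2 difference was -1.39 ± 0.11 (adjusted p = 0.000676), -1.57 with the run term (adjusted p = 0.0310), and the other second-run libraries held 94.2 to 150 CPM. Zfp827, a zinc finger gene, had 24.3 and 31.7 CPM against 127, 83.9 and 89.6 (log2 -1.83 ± 0.19, adjusted p = 0.00158, and -1.35 at 0.0409 with the run term). Parvb, which encodes the adhesion protein beta-parvin, had 11.9 and 16.3 CPM against 35.0, 33.7 and 31.6 (log2 -1.26 ± 0.16, adjusted p = 0.00252), with 60.04 to 104 CPM in the other second-run libraries. In the opposite direction, Gm11944 had 35.9 and 35.0 CPM against 13.3, 11.2 and 11.7 (log2 1.55 ± 0.14, adjusted p = 0.00111, and 1.74 at 0.0409 with the run term). These 4 genes, picked from the 15 after their values were seen, passed under both fits. The main fit also called 1 of the 2 higher and 7 of the 13 lower genes of the run-term fit, and not the rest. Il31ra and Wdr1, which are not among the single-gene results counted here, had opposite signs in the 2 fits. Their log2 differences were -0.76 and 0.50 in the main fit and 3.23 and -1.35 with the run term. In the fit across all 16 libraries without the run term, no named gene passed. Il31ra and Wdr1 aside, adjusted p ran from 0.0977 for Tiam1 and Zfp827 to 0.518 for Tbx3 on the mean of both copies.

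Differences followed gene length. The median log2 difference of the deletions fell from 0.63 for 1403 genes spanning under 5 kb to -0.13 for 198 genes of at least 500 kb, where 100kdel was at -0.26 and 245kdel at 0.03. Higher genes had a median span of 16.4 kb and lower genes of 73.5 kb, against 26.2 kb for all tested genes. In the shortest class the other second-run libraries had medians from 0.31 to 1.02, which encloses the 0.62 of 100kdel and the 0.64 of 245kdel, while 680kinv and F121-9 lay between -0.04 and 0.08. The other first-run libraries lay between -0.01 and 0.44 there. In the longest class the ranges were -0.61 to -0.04 in the other second-run and -0.57 to 0.15 in the other first-run libraries. The part of length in the single-gene results was not tested.

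**Figure D3:**
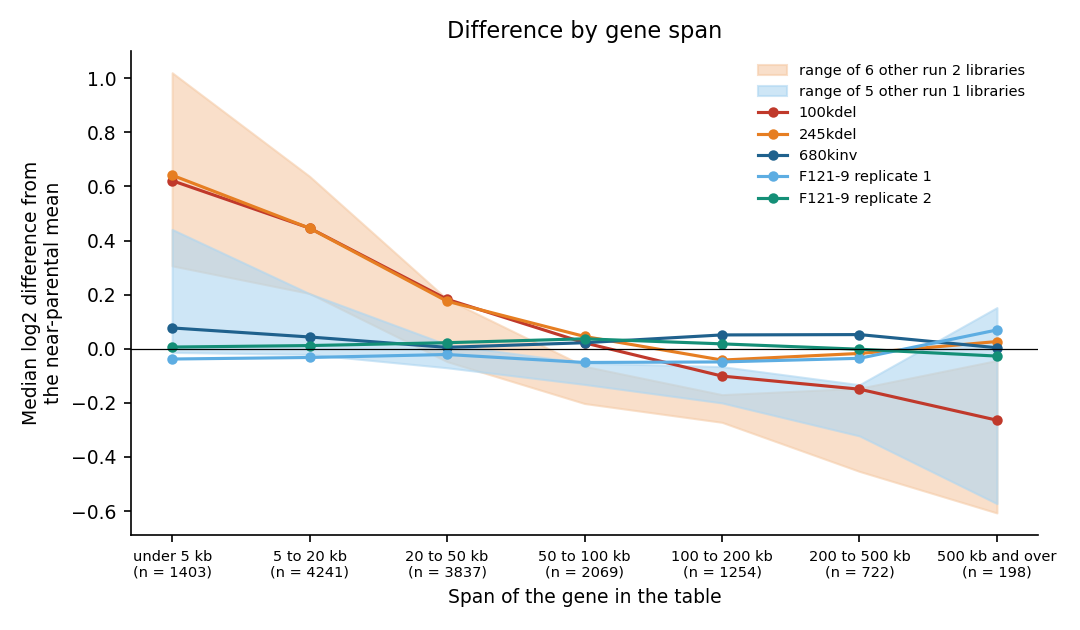
Median log2 difference from the near-parental mean for genes in 7 classes of span, one line for each of the 5 libraries and shaded ranges for the 6 other second-run and 5 other first-run libraries. Both deletions decline from about 0.62 to 0.64 in the shortest class, inside the second-run range there, to -0.26 in 100kdel and 0.03 in 245kdel in the longest.

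Of 36 tested germline and meiotic genes, 18 were higher in the deletions and 1 lower, beside 17.4% and 5.41% of all genes, with a median log2 difference of 0.80 (0.22 over all genes). The 18 comprise meiotic axis and cohesin genes such as Sycp1, Stag3, Smc1b and Rec8, piRNA and germ granule genes such as Tdrd9, Mov10l1, Asz1 and Piwil2, and the sperm mitochondrial genes Cox7b2 and Slc25a31. In 17 of the 18, both deletions also lay above all 6 other second-run libraries, and over all 36 members this held for 23, against 17.3% of tested genes. In 7 of the 36 genes those 6 libraries all lay below the near-parental libraries, and in 1 they all lay above them. Counts of members changed with scaling, to 11 higher and 3 lower after median centring, 11 and 2 with edgeR and 13 and 2 with DESeq2, and to 15 and 0 against the 6 other second-run libraries, where the median was 1.52. Without 100kdel or without 245kdel 3 were higher. With the run term none passed and the median was 0.13.

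Dazl, an RNA-binding protein required in germ cells, had 47.2 CPM in 100kdel and 41.8 in 245kdel, against 9.53 in 680kinv and 15.0 and 7.67 in F121-9. The 4.15-fold difference (log2 2.10 ± 0.25, adjusted p = 0.00244) separated the sets without overlap, and the other libraries held 2.28 to 10.6 CPM in the second run and 0.516 to 7.70 CPM in the first. With the run term the Dazl difference was -0.76 (adjusted p = 0.645). Sycp1, the transverse filament protein of the synaptonemal complex that joins homologues in meiosis, had 41.5 and 42.7 CPM in the deletions and 18.9, 19.1 and 14.5 CPM in 680kinv and F121-9 (log2 1.27 ± 0.15, adjusted p = 0.00244). The 11 other libraries ranged only from 0.651 to 5.24 CPM, all below the lowest of these 5.

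Cox7b2, a testis form of a cytochrome oxidase subunit, had 90.0 and 72.3 CPM against 43.3, 30.1 and 33.2 (log2 1.20 ± 0.17, adjusted p = 0.00326), with 1.01 to 6.31 CPM in the 11 other libraries. Slc25a31, an ADP/ATP carrier of germ cells, had 6.47 and 8.48 CPM against 2.04, 1.27 and 1.84 (log2 2.07 ± 0.30, adjusted p = 0.00358), with 0.0519 to 1.57 CPM elsewhere. Hsf2bp, which acts in meiotic recombination, was the single member that fell, with 89.0 and 78.7 CPM against 110, 101 and 140 (log2 -0.47 ± 0.14, adjusted p = 0.0451). Ddx4, Hormad2 and Dmc1 did not pass, with log2 differences of 0.61, -0.03 and 0.09.

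**Figure D4:**
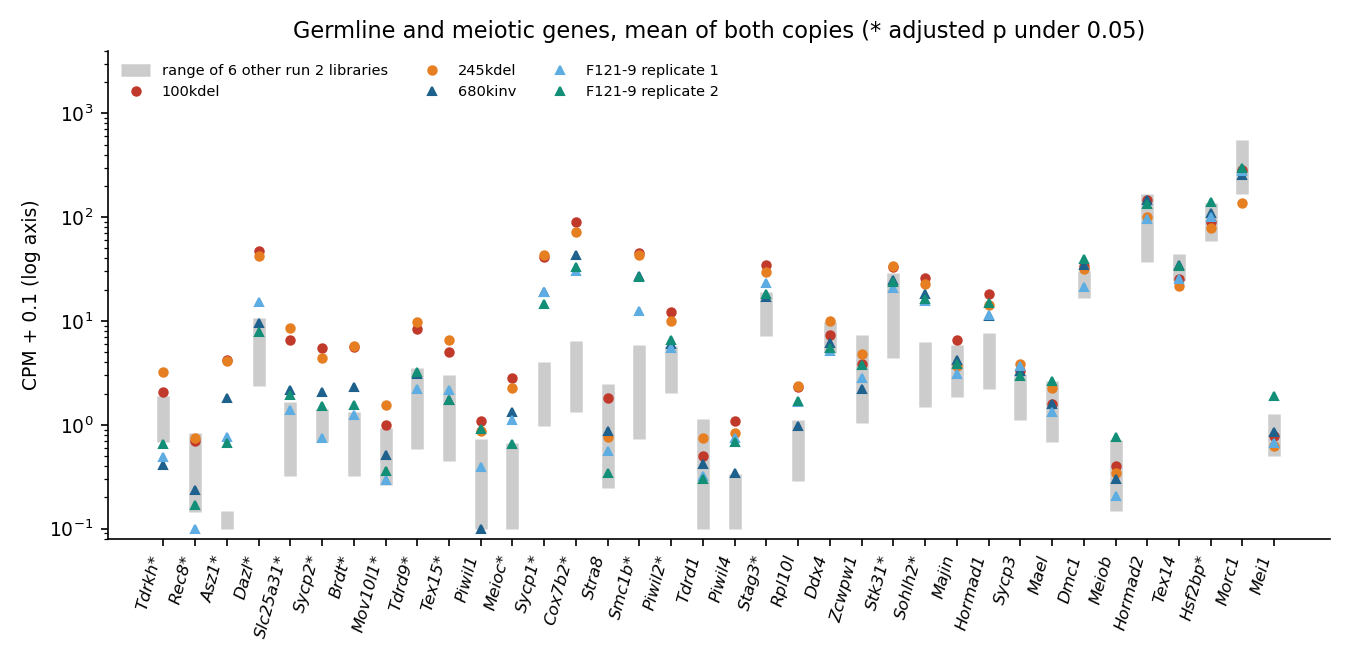
CPM + 0.1 on a log axis for the 36 tested germline and meiotic genes, ordered by log2 difference, with circles for the 2 deletions, triangles for the 3 near-parental libraries and grey bars for the range of the 6 other second-run libraries. Circles lie above the grey bar in 23 genes, and asterisks mark the 19 genes past the threshold.

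The start-site sequences of the 4 germline genes that the naming rule picked are given below because silenced germline promoters often carry the E-box CACGTG, bound by MGA with MAX, or the E2F6 site TCCCGC. Each run is the 250 bases before the RefSeq start (GRCm38.p6) on the strand of the gene, 5′ to 3′, with a match on either strand in capitals.
Sycp1, chr3:102936101-102936350, minus strand: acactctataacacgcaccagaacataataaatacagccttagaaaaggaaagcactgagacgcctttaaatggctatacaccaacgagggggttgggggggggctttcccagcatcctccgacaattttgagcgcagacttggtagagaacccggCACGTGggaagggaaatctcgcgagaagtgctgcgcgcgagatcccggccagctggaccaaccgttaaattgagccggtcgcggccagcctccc
Slc25a31, chr3:40708621-40708870, plus strand: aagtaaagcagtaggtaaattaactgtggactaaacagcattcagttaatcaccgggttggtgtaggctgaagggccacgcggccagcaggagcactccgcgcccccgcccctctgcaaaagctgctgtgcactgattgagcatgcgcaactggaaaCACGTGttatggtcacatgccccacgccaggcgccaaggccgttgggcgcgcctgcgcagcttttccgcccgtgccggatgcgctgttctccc
Cox7b2, chr5:71548206-71548455, minus strand: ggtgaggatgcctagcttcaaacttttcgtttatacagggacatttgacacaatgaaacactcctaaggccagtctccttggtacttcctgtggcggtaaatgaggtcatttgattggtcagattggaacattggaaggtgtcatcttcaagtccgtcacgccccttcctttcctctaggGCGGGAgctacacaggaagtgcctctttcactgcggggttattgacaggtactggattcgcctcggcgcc
Dazl, chr17:50293621-50293870, minus strand: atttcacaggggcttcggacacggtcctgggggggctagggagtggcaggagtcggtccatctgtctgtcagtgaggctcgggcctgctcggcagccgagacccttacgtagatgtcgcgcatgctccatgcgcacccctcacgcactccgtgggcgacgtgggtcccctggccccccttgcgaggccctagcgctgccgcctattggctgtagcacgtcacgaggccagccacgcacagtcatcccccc
In Sycp1 the match lies 89 to 94 bases before the start and in Slc25a31 88 to 93 bases before it, Cox7b2 holds the reverse complement of TCCCGC, and Dazl holds neither sequence in this window.

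Searched on both strands in windows of the same length, CACGTG was present for 13 of 31 tested germline members with a RefSeq entry, or 41.9%, against 9.96% of all 10545 tested genes with one and 6.02% of all 32851 promoters. Of members called higher 7 of 16 held it, and of the others 6 of 15. TCCCGC, which can share 1 base with CACGTG at its end, was present for 38.7% of the members, 33.4% of tested genes and 16.9% of all promoters, and for 4 of 16 members called higher against 8 of 15 others. Higher genes as a whole held CACGTG in 10.6% and lower genes in 11.4% of cases, both close to all tested genes. These matches are descriptions of the letters and not evidence of binding.

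Pluripotency factors moved in both directions. Of 12 core genes 3 were higher and 1 lower, and of 12 naive-state genes 5 were higher and 1 lower, beside 17.4% higher and 5.41% lower of all genes. The naive count was 1 higher and 2 lower after median centring and 2 and 1 with edgeR. Without 100kdel no member of either list passed, and without 245kdel 2 core genes did. The core median of 0.17 was below that of all genes, and it was negative after median centring, with edgeR and with DESeq2. Nanog had 261 and 241 CPM in 100kdel and 245kdel, against 146 in 680kinv and 163 and 134 in F121-9 (log2 0.77 ± 0.10, adjusted p = 0.00292). Sox2 had 32.4 and 27.6 CPM against 9.41, 13.8 and 13.6 (log2 1.30 ± 0.19, adjusted p = 0.00408). Pou5f1, which encodes OCT4, had 24.2 and 22.8 CPM against 12.5, 13.5 and 12 (log2 0.88 ± 0.14, adjusted p = 0.00488). The deletions lay above all 3 near-parental libraries for these 3 genes, yet within the second-run ranges of 149 to 275, 21.4 to 38.2 and 16.3 to 44.6 CPM.

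Lin28b, which blocks maturation of let-7 microRNAs, fell to 63.3 and 74.1 CPM from 136, 105 and 112 (log2 -0.77 ± 0.13, adjusted p = 0.00605), below the 89.4 to 115 CPM of the other second-run libraries; with the run term the difference was 0.077 (adjusted p = 0.917). Among naive factors, Tbx3 had 92.2 and 90.3 CPM against 49.2, 60.3 and 56.0 (log2 0.73 ± 0.11, adjusted p = 0.00457), and Tcl1, a coactivator of AKT kinase, had 26.8 and 28.6 CPM against 12, 12 and 16.7 (log2 1.04 ± 0.18, adjusted p = 0.00602). Tcl1 exceeded the second-run range of 7.07 to 18.5 CPM, and Tbx3 lay within its own of 81.5 to 138. Esrrb was the 1 naive factor that fell, with 577 and 578 CPM against 672, 777 and 718 (log2 -0.32 ± 0.08, adjusted p = 0.0267), below the second-run range of 615 to 834 CPM; the run term left it at -0.48 (adjusted p = 0.337).

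Regulators of DNA methylation gave 4 higher and 1 lower of 13, beside 17.4% and 5.41% of all genes, and 2 higher and 4 lower after median centring, with edgeR and with DESeq2. Tet1, the dioxygenase that oxidises methylcytosine, had 354 CPM in each deletion, against 720 in 680kinv and 851 and 671 in F121-9, a 2.11-fold lower level (log2 -1.07 ± 0.10, adjusted p = 0.00134). All 11 other libraries had at least 637 CPM, so that the deletions were the lowest of the 16 libraries. Zfp57, which protects methylation at imprinted loci, had 18.6 and 18.2 CPM against 3.38, 6.61 and 3.87 (log2 2.03 ± 0.28, adjusted p = 0.00306), with 18.7 to 27.9 CPM in the other second-run and 2.65 to 4.64 CPM in the other first-run libraries. The Zfp57 value thus followed the run in all 16 libraries.

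Genes of the p53 response were higher in 8 and lower in none of 19 tested, beside 17.4% and 5.41% of all genes, with a median of 0.73. Cdkn1a, the cyclin-dependent kinase inhibitor p21, had 89.3 CPM in 100kdel and 72.1 in 245kdel, against 26.0 in 680kinv and 23.5 and 32.2 in F121-9 (log2 1.57 ± 0.16, adjusted p = 0.00144). Ccng1, which encodes cyclin G, had 44.3 and 43.1 CPM against 17.1, 16.7 and 15.7 (log2 1.40 ± 0.12, adjusted p = 0.00100). Pmaip1, the apoptosis gene for NOXA, had 8.11 and 9.64 CPM against 3.41, 2.81 and 2.58 (log2 1.57 ± 0.24, adjusted p = 0.00417). Of these only Cdkn1a exceeded the other second-run libraries, which reached 69.9 CPM, and against those 6 libraries no member passed (median -0.01). After median centring 5 members were higher and 3 lower, and with either deletion library left out 2 were higher.

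The upstream RefSeq start of Cdkn1a is shown because its window holds paired p53 half-sites, searched on both strands as CATG, any 6 bases and CATG, and set in capitals.
Cdkn1a, chr17:29090729-29090978, plus strand (GRCm38.p6): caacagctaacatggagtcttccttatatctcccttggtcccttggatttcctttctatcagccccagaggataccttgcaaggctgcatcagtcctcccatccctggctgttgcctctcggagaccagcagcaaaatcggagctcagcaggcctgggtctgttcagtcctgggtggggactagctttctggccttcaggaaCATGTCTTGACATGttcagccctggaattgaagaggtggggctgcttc
The match lies 35 to 48 bases before that start, and 1 of 15 p53 list members with a promoter holds the motif, against 0.379% of tested genes and 0.490% of all promoters.

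Amino acid stress genes controlled by ATF4 fell in 6 of 22 and rose in 1, beside 5.41% and 17.4% of all genes, with a median of -0.50. The 6 became 3 without 680kinv or F121-9 replicate 2, 9 without F121-9 replicate 1 and 0 with either deletion left out. Psat1, an enzyme of serine synthesis, had 65.0 and 63.2 CPM against 146 in 680kinv and 104 and 176 in F121-9 (log2 -1.11 ± 0.19, adjusted p = 0.00582). Mthfd2, the mitochondrial folate enzyme, had 10.6 and 12.6 CPM against 30.6, 18.0 and 31.0 (log2 -1.15 ± 0.24, adjusted p = 0.0120). Vldlr and Pck2 fell by 1.61 and 1.45 on the log2 scale, with adjusted p of 0.0134 and 0.0190. For these 4 genes F121-9 replicate 1 was the near-parental library closest to the deletions, and against the 6 other second-run libraries no member of the list passed.

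Chaperone genes of the heat shock response rose in 9 of 14 with none lower, beside 17.4% and 5.41% of all genes, and a median of 0.64. Median centring and edgeR each left 6, and 3 and 1 passed without 100kdel and without 245kdel. Hsph1, a partner of HSP70, had 169 and 177 CPM against 80.0, 78.0 and 84.6 (log2 1.10 ± 0.09, adjusted p = 0.000783), above the second-run range of 81.9 to 130 CPM. Hspa8, the constitutive HSP70, had 48.6 and 47.5 CPM against 30.7, 20.6 and 19 (log2 1.06 ± 0.19, adjusted p = 0.00752), and Hspa5 and Hsp90aa1 had log2 differences of 1.08 and 0.79. Those 3 genes lay within the second-run ranges. Hsph1 was the single list member that passed against the 6 other second-run libraries, while with the run term its difference was -0.0022 (adjusted p = 0.998).

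Ribosomal protein genes rose in 54 of 76 and fell in 1, beside 17.4% and 5.41% of all genes, with a median of 0.75 beside 0.63 for all genes under 5 kb; their own median span was 3.10 kb. The higher members numbered 25 after median centring, 37 with edgeR, 5 without 100kdel and 6 without 245kdel. Rps28 had 16 and 16.9 CPM in the deletions, against 4.32 in 680kinv and 5.63 and 4.83 in F121-9 (log2 1.73 ± 0.19, adjusted p = 0.00197). Rps18, Rps19 and Rpl35 had log2 differences of 1.11, 1.26 and 1.27. None of the 54 lay above all 6 other second-run libraries, and in 63 of the 76 genes those 6 libraries all lay above the near-parental libraries too. The single gene that fell was Rpl37rt, a retrogene (log2 -0.56 ± 0.16, adjusted p = 0.0376).

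Replication-dependent histone genes went the other way. Of 18 tested, 8 were lower and none higher, beside 5.41% and 17.4% of all genes, with a median of -1.22, although these genes have a median span of 0.501 kb and short genes as a class were higher. The 8 became 3 without 680kinv or F121-9 replicate 2 and 0 with either deletion left out. Hist1h1a, a linker histone, had 10.8 and 12.8 CPM against 15.6, 21.3 and 25.2 (log2 -0.78 ± 0.21, adjusted p = 0.0296). Hist1h1c had 0.487 and 0.428 CPM against 2.48, 2.34 and 2.43 (log2 -2.18 ± 0.33, adjusted p = 0.00439), and rested on 24 reads in the deletions together. Hist1h3b and Hist1h2bb had log2 differences of -1.99 and -1.19. In 12 of the 18 genes all 6 other second-run libraries also lay below the near-parental ones, and against those 6 no member passed (median 0.57). Reads cannot always be told apart between near-identical histone copies, which was not tested here, so that single members are uncertain.

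Among Platr and Snhg RNAs, noncoding transcripts of stem cells and host transcripts of small nucleolar RNAs, 9 of 25 were higher and none lower, beside 17.4% and 5.41% of all genes, and 2 and 3 were higher without 100kdel and without 245kdel. Snhg11 had 52.9 and 49.3 CPM against 11.4, 6.49 and 11.5 (log2 2.42 ± 0.24, adjusted p = 0.00141), above the second-run range of 14.1 to 39.3 CPM. Platr14 had 92.8 and 69.9 CPM against 28.6, 35.7 and 40.7 (log2 1.22 ± 0.17, adjusted p = 0.00351), again above the 27.5 to 60.3 CPM of those libraries, although with the run term its difference was -0.54 (adjusted p = 0.582). Of 27 imprinted genes 6 were higher and 2 lower, shares near the 17.4% and 5.41% of all genes, or 5 and 8 after median centring and with DESeq2, and the list median of 0.01 turned negative under all 4 other scalings. Kcnq1ot1, the antisense RNA that silences its imprinted cluster, had 464 and 459 CPM against 201, 210 and 215 (log2 1.15 ± 0.08, adjusted p = 0.000673), and Airn, which does so at Igf2r, had 28.2 and 26.4 CPM against 8.48, 11 and 10.5 (log2 1.45 ± 0.16, adjusted p = 0.00208). Both lay within the second-run ranges.

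Polycomb complex 2 genes fell in 3 of 11, beside 5.41% of all genes, and rose in 2, a share near the 17.4% of all genes. None kept its call with either deletion left out. None of the 3 that fell lay below all 6 other second-run libraries, and in 4 of the 11 genes those libraries all lay below the near-parental ones. Suz12, Jarid2 and Mtf2, a core subunit and accessory subunits, fell by 0.47, 0.47 and 0.41 on the log2 scale (adjusted p = 0.00488, 0.0139 and 0.0104), and Epop, another accessory factor, rose by 1.35 (adjusted p = 0.00918), within the second-run range. Quantile normalization removed the calls of the 3 that fell. Sterol synthesis gave 2 lower of 22, near the 5.41% of all genes, Msmo1 (log2 -0.76 ± 0.09, adjusted p = 0.00233) and Cyp51 (log2 -0.45 ± 0.10, adjusted p = 0.0160). Of 10 WNT targets 4 were higher and none lower, beside 17.4% and 5.41% of all genes (2 higher and 2 lower after median centring). Axin2, the feedback inhibitor of the pathway, rose by 1.09 (adjusted p = 0.00244). Cdx1, T and Notum rose by 2.79, 2.14 and 1.36 (adjusted p = 0.00582, 0.0440 and 0.0335). T and Notum did not pass under median centring, quantile normalization, edgeR or DESeq2. Spred2, an inhibitor of ERK signalling, and Lifr, the LIF receptor, fell by 0.70 and 0.77 (adjusted p = 0.00306 and 0.00384). Spred2 was the only call among 14 FGF and ERK feedback genes. Of 11 LIF pathway genes Lifr was the 1 that fell, and 1 rose, beside 5.41% lower and 17.4% higher of all genes. Spred2 and Lifr lay below all 6 other second-run libraries. Lama1, a laminin chain, was the 1 of 12 primitive endoderm genes that passed, lower by 0.82 (adjusted p = 0.00538), beside 5.41% of all genes. Of 12 listed neural genes only 3 were tested, and 2 of these, Nes and Tubb3, were higher, beside 17.4% of all genes. Against the 6 other second-run libraries no neural gene passed, with a median of 0.06.

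Each copy was also tested alone. On the 129 copy 1524 of 13603 genes were higher (11.2%) and 560 lower (4.12%), and on the cast copy 1526 of 13521 were higher (11.3%) and 572 lower (4.23%). After median centring the counts were 577 and 1721 for 129 and 575 and 1577 for cast, with edgeR 813 and 1004, and 784 and 998, with DESeq2 887 and 1330, and 846 and 1374, and with quantile normalization 948 and 938, and 885 and 951. No more than 20 genes per copy and direction passed without 100kdel or without 245kdel. Without F121-9 replicate 1 the counts were 2290 and 1138 for 129 and the lower cast genes numbered 1080. Without replicate 2 the lower genes numbered 326 and 280, and the higher cast genes 891, and without 680kinv the lower genes numbered 353 and 287.

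On the 129 copy, Bfsp2 had 2.34 and 3.15 CPM in the deletions and 0, 0 and 0.123 CPM in 680kinv and F121-9 (adjusted p = 0.00448). A530064D06Rik, 1700112H15Rik and Tuba3b, a tubulin gene, were 31.9-fold, 14.4-fold and 24.8-fold higher there, and Nat14 had 1.58 and 1.18 CPM against no read in the near-parental libraries (adjusted p = 0.0109). Slc22a22 had no 129 read in either deletion against 0.543 to 1.36 CPM (adjusted p = 0.0221), and Hist1h3b, 2310030A07Rik, Bmf and Kndc1 completed the 5 that fell most. On the cast copy, Crispld2, Gpr83, Gm20098, C8b (a complement component) and Gm17399 rose most, by 3.72 (Gm17399) to 4.15 (Crispld2) on the log2 scale, and B4galnt2, Cntnap5c, Kcnip1 and Klhl1 were among those that fell most. Cntnap5c had no cast read in the deletions against 0.604 to 0.958 CPM. All these genes had low levels, so that the log2 values depend on the added 0.1 CPM.

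The difference between copies did not separate the sets at the threshold. Of 12843 genes tested for 129 minus cast, none passed in either direction by limma (0.00%), with 875 at an unadjusted p under 0.05, and no count model was run for this contrast. Capn8, a calpain protease, came closest, with log2 ratios of 129 to cast of -1.997 in 100kdel and -2.14 in 245kdel, against 0.76 in 680kinv and 0.63 in both F121-9 libraries (difference -2.74 ± 0.13, adjusted p = 0.169), on 36 reads in the deletions and 71 in the near-parental libraries. Hscb and Exoc3l towards cast and 1700067K01Rik, 2310043M15Rik and Gm20544 towards 129 followed, each with an adjusted p of 0.686. Across autosomes the 129 share of reads was 48.1% to 56.1% in all 5 libraries.

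The deletions were close to each other. Of 11156 genes with a mean of at least 1 CPM, 125 were at least 2-fold higher in 245kdel (1.12%) and 33 lower (0.296%), with 1 library each and therefore no test. Between a deletion and a near-parental library 13.4% to 15.6% of genes were at least 2-fold apart, and within the near-parental set 3.41% to 6.02% were. At a mean of at least 5 CPM the counts fell to 31 and 1, and with 1 CPM added to 63 and 1, so most of the 158 genes rested on low levels. No gene moved at least 2-fold above all near-parental libraries in one deletion and below them in the other. Inpp4b, a lipid phosphatase, had 12.9 CPM in 245kdel and 2.07 in 100kdel, against 0.409 to 2.60 in the near-parental libraries. Nell1, a secreted protein, had 30.7 and 7.44 CPM in 245kdel and 100kdel, of which the cast copy gave 59.99 and 13.3 and the 129 copy 1.38 and 1.58. Chrm3, a muscarinic receptor, had 23.1 and 6.75 CPM, from 45.7 and 12.9 on 129 and 0.548 and 0.584 on cast. Gm12724, Csmd1, 6530403H02Rik, Arhgef26 and Abcb5 were also among the 8 with the largest gain in 245kdel, each by 1.60 (Abcb5) to 1.95 (Gm12724) on the log2 scale. Morc1 was the only gene of at least 5 CPM that was 2-fold lower in 245kdel.

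At the Dppa2 and Morc1 locus the loss was on the 129 copy in both clones and of different genes. Dppa4, at chr16:48283735-48294292, had 1 129 read in 100kdel against 12.6 to 14.8 CPM in the near-parental libraries, a ratio of 235 (exact 95% interval 42.1 to 9303, counting error only), and 15.7 CPM in 245kdel. Dppa2, at chr16:48310274-48319513, had 3 129 reads in 100kdel, a ratio of 121 (41.4 to 588), and 37.4 CPM in 245kdel against 19.8 to 23.0 CPM. The cast copy of Dppa4 was 21.8 and 18.8 CPM in the deletions and 18.7 to 24.1 CPM in the others. Thus 100kdel lacked 129 transcripts of both genes and 245kdel of neither. Such low 129 values also occurred elsewhere in the series. Across the 11 other libraries 129 Dppa4 spanned 0 to 24.0 CPM and 129 Dppa2 0.104 to 53.2 CPM.

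Morc1, a germ cell ATPase gene at chr16:48431237-48630905, showed the reverse, with 285 CPM from 129 in 100kdel and 15.4 in 245kdel, against 191 to 294 CPM, and 255 to 315 CPM from cast in all 5 libraries. In segments drawn by the authors along Morc1, 245kdel had 1 129 read in the first, a ratio of 957 (172 to 37813), and none in the second, at least 324-fold lower at a floor of 3 reads, with an exact 95% lower limit of 264 for the ratio. Segments 3 and 4 had 10.3 and 6.31 CPM from 129 in 245kdel, beside 22.2 and 34.5 in 100kdel, 18.7 and 30.2 in F121-9 replicate 1 and 5.38 and 3.65 in 680kinv. In 680kinv the 129 signal of the last segments was thus lower than in 245kdel, while its first 2 segments were at 94.7 and 86.4 CPM. Across the 11 other libraries of the series 129 Morc1 spanned 3.70 to 469 CPM. Its first segment spanned 0.172 to 159 CPM there and its second 2.53 to 173 CPM.

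Cast Dppa2 and the 129 copy of a neighbour, Dzip3, were also called higher. On the cast copy Dppa2 had 25.3 CPM in 100kdel and 26.6 in 245kdel, against 13.8 in 680kinv and 15.8 and 12.1 in F121-9 (log2 0.91 ± 0.18, adjusted p = 0.0108); the difference was -0.12 with the run term (adjusted p = 0.945). Dzip3, a ubiquitin ligase gene distal to Morc1, had 72.4 and 80.3 CPM from 129 against 48.8, 53.9 and 59.1 (log2 0.50 ± 0.13, adjusted p = 0.0245), and 80.4 and 93.3 CPM from cast against 74.2, 65.7 and 63.7 (log2 0.35 ± 0.13, adjusted p = 0.0827). The 129 call of Dzip3 held under 1 of 4 other scalings, and its adjusted p was 0.661 with the run term. For 129 Dzip3 the 11 other libraries spanned 34.1 to 83.2 CPM, which encloses both deletions. Cip2a, an inhibitor of the phosphatase PP2A, did not pass on either copy, with log2 differences of 0.20 and 0.09. A test over single genes at the locus by exact permutation of 2 against 3 libraries has 10 splits and cannot go below p = 0.1.

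**Figure D5:**
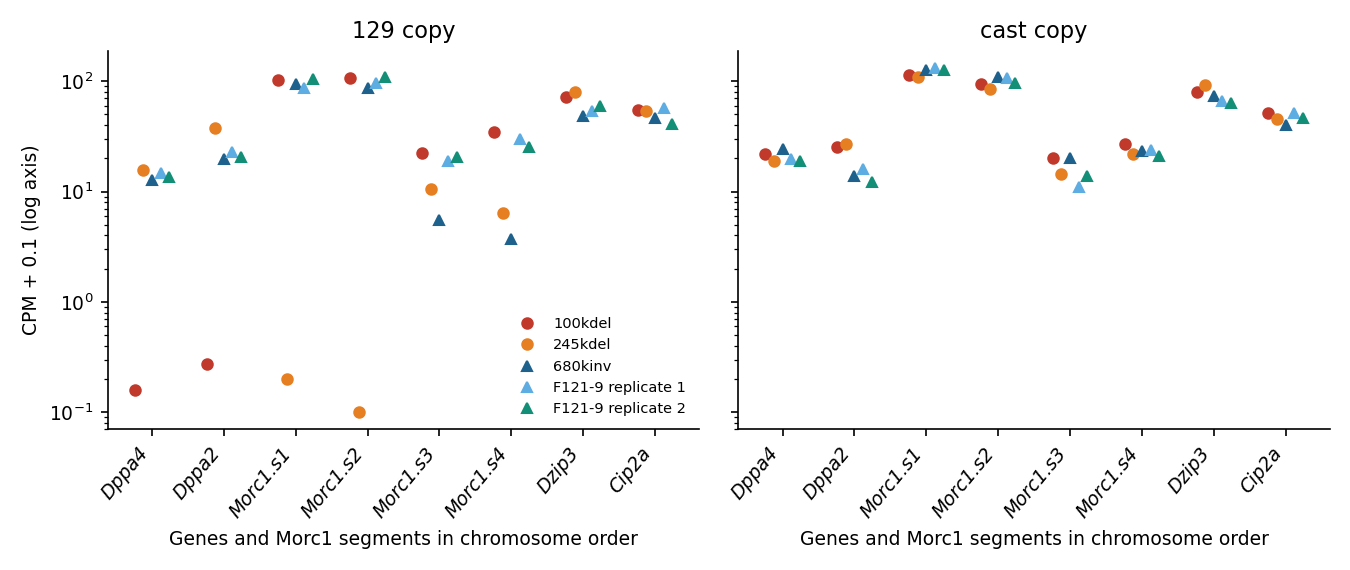
CPM + 0.1 on a log axis for Dppa4, Dppa2, 4 segments of Morc1, Dzip3 and Cip2a in chromosome order, on the 129 copy (left) and the cast copy (right), with circles for the deletions and triangles for the near-parental libraries. On the 129 copy 100kdel drops out at Dppa4 and Dppa2 and 245kdel at the first 2 Morc1 segments, and on the cast copy no library does.

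No chromosome stood out as a whole. The median log2 difference of genes with a mean of at least 1 CPM, averaged over the 2 deletions, was positive on all 19 autosomes, from 0.11 on chromosome 18 to 0.31 on chromosome 19, while the near-parental libraries lay between -0.05 and 0.05. Chromosome 16, which holds Dppa2 and Morc1, had 0.20 in 100kdel and 0.18 in 245kdel. After median centring chromosome 19 was at -0.0031 and chromosome 18 at -0.21, so that the sign depended on scaling.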

How the data were processed

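Bru-seq values came as CPM in 1 table for the series, 1 column per copy and library, each summing to 1e+06 over 42497 lines as deposited by the authors. The labels name the table RPKM, but its values show no division by length, and whole reads were recovered from the steps of the deposited CPM for 100% of values within 0.01. The submitters' processing notes name Bowtie2, bedtools and mm10, with versions not given in the sources used here. The widest line per symbol was kept on autosomes (23830 symbols), and the copies were averaged. Differences were tested with limma 3.58.1 (R 4.3.3, trended eBayes) on log2(CPM + 0.1) for genes with a mean of at least 0.2 CPM over the 5 libraries, 2 against 3, with Benjamini-Hochberg adjustment over all genes tested, and all SE and adjusted p in the text are limma's unless another tool is named. The design was written for length-scaled values and held that edgeR would replace limma if the values were counts. The deposited values were CPM from which whole reads could be recovered, and limma was kept, a departure from that plan. The choice set the balance of directions, with 2393 higher and 743 lower by limma and 1227 and 1427 with edgeR. edgeR 4.0.16 and DESeq2 1.42.0 were run on recovered reads as alternatives, and the scripts were tested on simulated data. Other alternatives were the pseudocount, filters, scaling, the line kept per gene, eBayes settings, all 16 libraries with and without the run of sample numbers, and leaving out each library; the comparison with 6 second-run libraries was added after the data were seen. At the depths found, 3 reads equal 0.117 to 0.329 CPM per copy, and read-count intervals cover counting error only.

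Members and gene lists were chosen with earlier results of these data known. Named genes are the 12 highest and 12 lowest by log2 difference among called genes with a mean of at least 1 CPM that do not overlap between sets (5 and 5 per copy, with no minimum), up to 4 called members per list by p, and 8 genes for the pair of deletions; 1 gene picked by this rule is not reported here. Ddx4, Hormad2, Dmc1, Hsf2bp, Esrrb and Rpl37rt, the genes called with the run term and Malat1 were named after their values were seen, and ribosomal S6 kinases were then removed from the ribosomal protein list.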

Additional observations from a re-analysis of the deposited data

How the results depend on the processing

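Genes higher and lower on both copies, on 129 and on cast numbered 915 and 2094, 577 and 1721, and 575 and 1577 after median centring. Quantile normalization gave 1295 and 1239, 948 and 938, and 885 and 951. edgeR gave 1227 and 1427, 813 and 1004, and 784 and 998, and DESeq2 gave 1365 and 1828, 887 and 1330, and 846 and 1374. Without the variance trend 1297 and 219, 2 and 0, and 0 and 0 passed. With all 16 libraries in the fit 0 and 0 passed in each case, and with the run term 2 and 13, 1 and 16, and 0 and 0. Against the 6 other second-run libraries, an alternative added after the data were seen, 542 and 315, 253 and 161, and 196 and 85 passed. The cause of these moves was not tested.

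Leaving out 1 library at a time gave 117 to 3190 higher and 46 to 1411 lower genes on both copies, 9 to 2290 and 6 to 1138 on 129, and 5 to 2194 and 0 to 1080 on cast, and a set reduced to 1 deletion is assumed to vary like the near-parental set. The 245kdel gains over 100kdel numbered 31 at a mean of at least 5 CPM and 63 with 1 CPM added, and the losses 1 and 1. The chromosome 19 median was 0.35 at a mean of at least 0.2 CPM, 0.21 at 5 and -0.0031 after centring, and that of chromosome 18 was 0.028 at 5 and -0.21 after centring.

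Of 108 single-gene results, none changed sign under another pseudocount, filter, scaling, eBayes setting or count model, and 102 no longer passed with all 16 libraries. With the run term 23 changed sign, none of them past the threshold: Cdx1 to -1.24, Notum to -0.52, T to -1.03, Dazl to -0.76, Epop to -0.87, Hist1h2bb to 1.21, Hspa5 to -0.28, Hspa8 to -0.16, Hsph1 to -0.002201, Lin28b to 0.077, Nanog to -0.074, Platr14 to -0.54, Pou5f1 to -0.81, Rpl35 to -0.41, Rpl37rt to 0.29, Rps18 to -0.83, Rps19 to -0.65, Rps28 to -0.31, Sox2 to -0.11, Tbx3 to -0.96, Zfp57 to -0.89, and on cast Crispld2 to -0.97 and Dppa2 to -0.12. Against the 6 second-run libraries 18 changed sign: Hist1h1a to 0.63, Hist1h1c to 0.34, Hist1h2bb to 0.61, Hist1h3b to 0.52, Hspa5 to -0.12, Jarid2 to 0.18, Mthfd2 to 0.10, Pou5f1 to -0.21, Rpl35 to -0.18, Rpl37rt to 0.11, Rps18 to -0.65, Rps19 to -0.55, Rps28 to -0.28, Sox2 to -0.081, Suz12 to 0.074, Tbx3 to -0.30, Zfp57 to -0.32, and on cast Klhl1 to 0.17. No paired analysis was possible because the sets compared share fewer than 2 replicate numbers. Depth limits genes under about 1 CPM, where a library holds few reads per copy.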
